A study of Mus musculus with 6 samples.

Results

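Rictor and 8 other genes of the mTOR complexes and their regulation are described here, out of 19938 genes measured on the arrays. The 8 are Mapkap1, Prr5, Prr5l, Rptor, Deptor, Mtor, Mlst8 and Ddit4, which encodes an inhibitor and not a subunit. All 9 were taken by name, as subunits or regulators of the complexes, and Rictor was included as a reported target of miR-188. Each of the 9 had exactly 1 probe set with a single gene symbol, so no choice between probe sets was needed. The arrays compared bone marrow stromal cells of 6-month-old C57BL/6 mice, 3 wild-type samples (WT) and 3 samples labelled as miR-188 knockouts (KO). All 6 samples were cultured in the same adipogenic induction medium, which held 5 µg/ml of insulin, dexamethasone (a synthetic glucocorticoid) at 1 µM, the phosphodiesterase inhibitor IBMX at 0.5 mM and serum at 10%. Insulin and dexamethasone were therefore present in both genotypes. The sources used here do not state how long the cells were cultured, how far the deletion reaches or whether every replicate had its own mouse. P-values therefore measure the spread among these cultures, which may be partly technical.

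The kinase mTOR works in 2 complexes. mTORC1, defined by RAPTOR (Rptor), responds to growth factors and amino acids at the lysosome and drives protein and lipid synthesis. mTORC2, defined by RICTOR together with SIN1 (Mapkap1), phosphorylates AKT, SGK and PKC kinases downstream of insulin and other growth factors. Both complexes contain mTOR itself and the small beta-propeller protein mLST8, and both can bind the inhibitor DEPTOR. REDD1, the product of Ddit4, is a stress-induced protein that restrains mTORC1 through the TSC complex. In fat-forming cells both complexes are known to take part in insulin signalling and adipocyte differentiation. A microRNA lowers its targets through messenger decay, reduced translation or both, and arrays read the messenger only.

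The 2 mature strands of miR-188 are shown because the knockout label names this microRNA and the seed is the part that pairs with a target. Capitals mark the seed, bases 2 to 8 from the 5′ end. The sequences are those of RefSeq (GRCm38.p6) on the minus strand, the 5p strand at chrX:7248031-7248051 and the 3p strand at chrX:7247992-7248012.
mmu-miR-188-5p: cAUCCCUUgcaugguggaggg
mmu-miR-188-3p: cUCCCACAugcaggguuugca
Of 1738 mature mouse microRNAs in that table, 2 have the 5p seed, miR-188-5p and miR-7061-3p, and 1 has the 3p seed. The sources used here do not say which strand was reported to act on Rictor, and the Rictor transcript was not searched for seed matches. The Mir188 probe set differed by -0.10 between KO and WT (adjusted p = 0.348, limma). Whether it lies inside the deletion or reads the mature microRNA is not known, so it does not check the genotype labels.

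Values are the deposited log2 levels, a difference is KO minus WT on that scale, and a gene passed the test at a limma p-value under 0.05 after Benjamini-Hochberg adjustment over all 19938 genes. Of all genes 7.31% passed, 3.34% higher and 3.97% lower in KO. Across probe sets, the correlation was 0.994 to 0.997 within a genotype and 0.991 to 0.995 between genotypes. A reference level of 6.82, the 95th percentile of olfactory receptor genes, served as background. Of the marrow stromal markers 10 of 11 lay above it, among them Pdgfra, Pdgfrb, Cxcl12 and Vim, while Lepr lay below. Macrophage markers were above it in 2 of 8 cases, Cd68 and Tyrobp, and adipocyte markers in 5 of 7, with Adipoq and Lep below it. Of those 5, Retn lay close to the reference, with means of 6.86 in WT and 6.88 in KO. Cidec had means of 7.24 and 7.18, and Plin1 of 7.55 and 7.53. Summed levels are the log2 of the added linear values, so the brightest genes weigh most in them. Those of the adipocyte markers were 11.46 to 11.51 in WT and 11.05 to 11.12 in KO. Pparg fell by 1.27 (adjusted p = 0.00113), the largest difference of all genes, and Fabp4 by 0.33 (adjusted p = 0.0186, limma). The other 5 adipocyte markers did not pass the test. The stromal sum was 14.72 to 14.73 in WT and 14.62 to 14.65 in KO, and of its 11 markers 2 rose, 3 fell and 6 were not called. The median difference of the stromal list was -0.01, and its brightest gene, Vim, was not called. The macrophage sum was 11.35 to 11.38 in WT and 11.22 on each KO array, where Cd68 alone of 8 markers fell and the list median was 0.03. The part of these shifts in the results below was not tested, and in bulk RNA fewer cells of a type and less RNA per cell cannot be told apart.

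Of the 9 genes, 1 rose in KO, Ddit4, none fell, and 8 did not pass the test. That is 11.1% of the members beside 7.31% of all genes, and the whole share comes from 1 gene. From earlier results of these data Ddit4 was already known to differ, so this share is no independent result. Of the 8 other members 0% were called. The median difference of the 9 was 0.01, and that of all genes was 0.00465. The median size of the differences regardless of sign was 0.05 in the members and 0.06 in all genes.

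**Figure D1:**
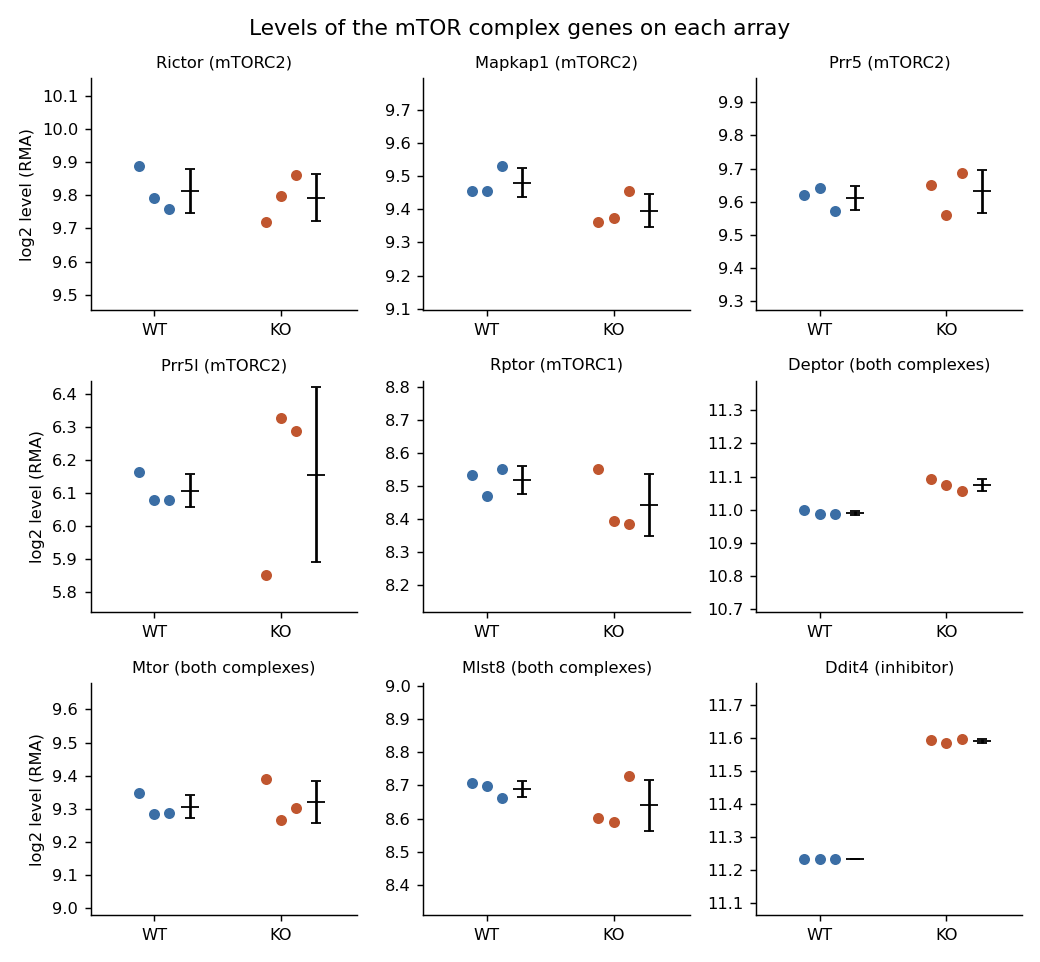
Log2 level (RMA) of each gene on the 3 WT arrays (blue) and the 3 KO arrays (orange), with the mean and SD beside the points and an equal span on every vertical axis. The KO points lie above all WT points for Deptor and Ddit4, with a wide gap for Ddit4, and the groups overlap in the other 7 genes.

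Of the mTORC2 subunits, Rictor had levels of 9.89, 9.79 and 9.76 in WT and 9.72, 9.80 and 9.86 in KO. The groups overlapped, with the highest array in WT and the lowest in KO. The difference was -0.02 (SE 0.05, adjusted p = 0.870, limma), with a 95% interval of -0.15 to 0.10. As a ratio of KO to WT the interval runs from 0.904 to 1.07. A rise of Rictor messenger beyond 1.07-fold lies outside it in this fit. The upper limit on the log2 scale, 0.10 here, was 0.14 with array weights or with the replicate number as a block. It was 0.15 without WT replicate 1 or without KO replicate 1. The sign of the small Rictor difference turned with the setting. The difference was 0.04 with array weights, 0.00177 after cyclic loess, 0.02 without WT replicate 1 and 0.02 without KO replicate 1. No setting brought it past the test (adjusted p = 0.551 to 0.993, limma).

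Mapkap1 encodes SIN1, which holds RICTOR on mTOR and recruits the substrates of the complex. Its levels were 9.46, 9.46 and 9.53 in WT and 9.36, 9.37 and 9.46 in KO. The highest KO array equalled the 2 lower WT arrays exactly, so the groups met without separating. The difference was -0.08 (95% interval -0.18 to 0.01, adjusted p = 0.324, limma), below 0 in all 13 alternative settings and past the test in none.

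Prr5 and Prr5l encode the PROTOR proteins, related accessory subunits that bind RICTOR. Prr5 had levels of 9.62, 9.64 and 9.57 in WT and 9.65, 9.56 and 9.69 in KO, with both the lowest and the highest array in KO. Its difference was 0.02 (95% interval -0.08 to 0.12, adjusted p = 0.851, limma). Prr5l had levels of 6.16, 6.08 and 6.08 in WT and 5.85, 6.33 and 6.29 in KO, below the background level on every array. The KO arrays of Prr5l spread to both sides of WT, and the difference of 0.05 had the widest interval of the 9 genes, -0.24 to 0.34 (adjusted p = 0.875, limma). It became 0.20 without KO replicate 1 and -0.04 without KO replicate 2, so Prr5l gave no usable direction. None of the 4 mTORC2-specific genes passed the limma test, and none had an unadjusted p under 0.05, which 20.7% of all genes had.

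**Figure D2:**
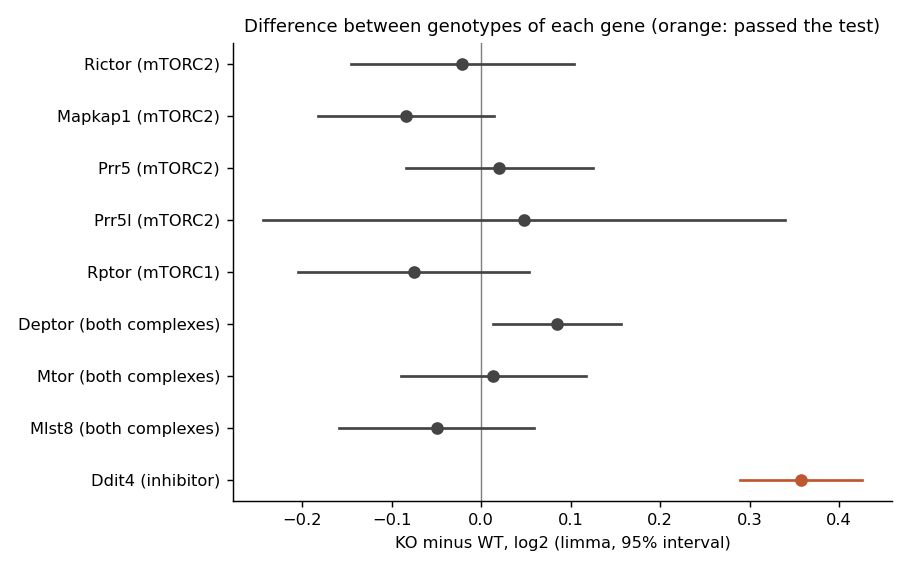
Difference KO minus WT on the log2 scale for each gene (points) with limma's 95% interval (lines). Brackets give the complex each belongs to, or the word inhibitor for Ddit4. The interval of Ddit4 runs from 0.29 to 0.43, that of Deptor from 0.01 to 0.16, and the other 7 include 0.

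Rptor, the subunit that defines mTORC1 and presents substrates to the kinase, had levels of 8.53, 8.47 and 8.55 in WT and 8.55, 8.39 and 8.38 in KO. KO replicates 2 and 3 lay below every WT array, while KO replicate 1 lay at the top of the WT range. The difference was -0.08 (95% interval -0.20 to 0.05, adjusted p = 0.510, limma). It was -0.13 without KO replicate 1, the largest of its 13 alternatives, none of which passed the test.

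Mtor, the catalytic subunit of both complexes, had levels of 9.35, 9.28 and 9.29 in WT and 9.39, 9.27 and 9.30 in KO. The KO arrays enclosed the WT arrays, and the difference was 0.01 (95% interval -0.09 to 0.12, adjusted p = 0.905, limma). Mlst8, whose product binds the kinase domain, had levels of 8.71, 8.70 and 8.66 in WT and 8.60, 8.59 and 8.73 in KO. KO replicates 1 and 2 lay below all WT arrays and KO replicate 3 above them, giving a difference of -0.05 (95% interval -0.16 to 0.06, adjusted p = 0.615, limma).

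Deptor encodes an inhibitor that binds mTOR in both complexes and is itself degraded when the kinase is active. Its levels were 11.00, 10.99 and 10.99 in WT and 11.09, 11.07 and 11.06 in KO. All KO arrays lay above all WT arrays, which was so for 11.4% of all genes. The difference of 0.08 (SE 0.03, 95% interval 0.01 to 0.16) had an unadjusted p of 0.0268 and an adjusted p of 0.167 (limma), so Deptor did not pass. It passed with a variance trend and robust variances (adjusted p = 0.0408), and over the other alternatives the adjusted p was 0.0583 to 0.402.

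Ddit4 was the member that rose. Its level was 11.23 on all 3 WT arrays, and 11.60, 11.58 and 11.60 in KO. The KO arrays lay within a span far narrower than their distance from WT. The difference was 0.36 (SE 0.03, 95% interval 0.29 to 0.43, adjusted p = 0.00290, limma), a ratio of 1.28 with an interval of 1.22 to 1.34. Among the 19938 genes it ranked 46 by p-value and 311 by the size of the difference. The 3 WT values were identical to the deposited digits, a tie that the median polish step of the authors' processing can produce, so the WT SD of 0.00 is no measure of precision. The SE, interval, p-value and rank of Ddit4 also draw on these tied values. Tied WT values occur in other genes too, among them Deptor, Sesn2 and Lpin1. The call held in each of the 6 fits on 5 arrays (adjusted p = 0.0159 to 0.0347, limma). Because of the tie, the difference stays at 0.36 whichever WT array is omitted, so those fits do not test its size. The 1 alternative of 13 that ended the call had the replicate number as a block. The difference was 0.41 after a further quantile normalization and 0.40 after cyclic loess.

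The Ddit4 promoter is shown because Ddit4 is the member that changed and is known to be induced through hypoxia factors, glucocorticoid receptor, ATF4 and p53. The stretch holds the 250 bases before the RefSeq start, at chr10:59951771-59952020 on the minus strand of GRCm38.p6. Capitals mark ACGTG and GCGTG, the core letters that hypoxia-inducible factors recognise, searched on both strands.
Ddit4 promoter: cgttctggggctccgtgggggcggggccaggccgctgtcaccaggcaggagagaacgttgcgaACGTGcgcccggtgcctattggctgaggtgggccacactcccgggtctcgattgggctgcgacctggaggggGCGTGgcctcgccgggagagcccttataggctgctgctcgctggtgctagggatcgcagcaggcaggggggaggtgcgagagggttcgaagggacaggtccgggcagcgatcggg
The ACGTG match lies 187 to 183 bases and the GCGTG match 115 to 111 bases before the start. One or the other occurs in 38.6% of the 32851 promoter windows of this length in the table, ACGTG in 16.57% and GCGTG in 28.16%. The window also holds CCAAT, the letters of the NF-Y box, at 2 places on the opposite strand, which 33.85% of windows hold at least once, and neither CACGTG nor the glucocorticoid half-site letters TGTTCT. Of the 9 genes 8 had a promoter in the table, with 12 windows in all, of which 8 held ACGTG or GCGTG. Mtor and Mlst8 had neither in their windows. Rptor had both, as Ddit4 did, and Mapkap1, Prr5, Prr5l and Rictor had GCGTG in at least 1 window. None of these other genes passed the test, so the letters are not particular to Ddit4. Letters of ATF4 or p53 elements were not searched, and sites beyond the 250 bases were not read. A match describes the letters of the window and not a bound site.

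Genes of the 4 signals known to induce Ddit4 were read beside it, on lists that overlap other sets of the series and were chosen with earlier results known. Of 20 hypoxia-induced genes, 8 rose, none fell and 12 did not pass, a share of 40.0% called beside 7.31% of all genes, with a median difference of 0.20. Hilpda, a lipid droplet protein gene, rose by 0.76 (adjusted p = 0.00294), the oxygen-sensing hydroxylases Egln1 and Egln3 by 0.66 (adjusted p = 0.000978) and 0.38 (adjusted p = 0.00359), and the peptide hormone gene Adm by 0.45 (adjusted p = 0.00349, limma). These 4 genes passed without any one of the arrays, and the count of the list was 6 to 8 over those fits. Of 18 glucocorticoid-induced genes, 5 rose, 1 fell and 12 did not pass, 33.3% called, with a median of 0.12. The lipase inhibitor gene Angptl4 rose by 0.51 (adjusted p = 0.00184) and the clock gene Per1 fell by 0.23 (adjusted p = 0.0109, limma), which did not pass once WT replicate 3 was removed (adjusted p = 0.0705). The count of that list dropped from 6 to 1 without WT replicate 3, 2 without WT replicate 1 or KO replicate 3, and 3 without KO replicate 1, and was 10 after cyclic loess.

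Genes of the ATF4 stress response moved in both directions, with 2 of 15 higher and 2 lower. That is 26.7% called beside 7.31% of all genes. The list had a median of -0.00859. Its rises were Sesn2 and Ddit3, and its falls Psat1 and Ppp1r15a. Sesn2 is described again among the stress sensors of the pathway. The count of 4 became 1 once WT replicate 3 was removed, 3 once KO replicate 2 was removed and 2 in each of the other fits on 5 arrays. Of 11 measured p53 targets none passed the limma test, and the median was 0.04. An unadjusted p under 0.05 was found for 6 of them and for 20.7% of all genes. Of the p53 targets 2 were called higher after quantile normalization again, after cyclic loess, with array weights and with the background filter. With a variance trend and robust variances 3 were called higher and 1 lower. Of all 19938 genes, quantile normalization again called 1552, cyclic loess 1533, array weights 3418 and the variance trend 2275. The background filter called 2184 of 13121. The part of any of these signals in the rise of Ddit4 was not tested.

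**Figure D3:**
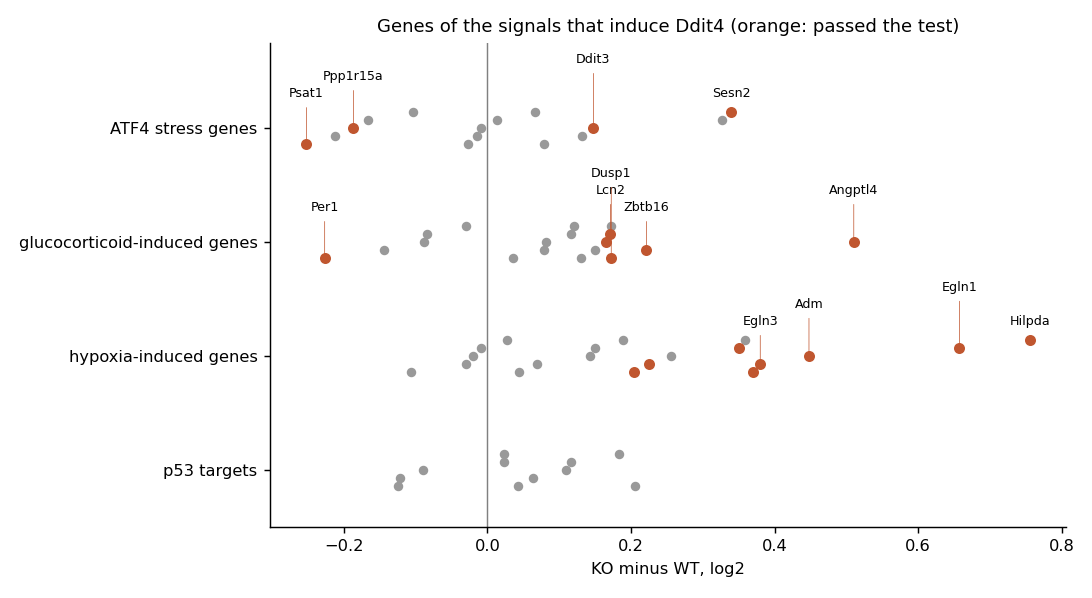
Differences KO minus WT (log2) of genes induced by the 4 signals that also induce Ddit4, each point 1 gene, orange where it passed the limma test. At most 4 called genes in each direction are named per list; the 8 called hypoxia-induced genes all lie to the right of 0 and the 4 called ATF4 genes on both sides.

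The other genes of the pathway were taken from 5 lists with 62 measured genes of 68. Of these, 5 rose, 4 fell and 53 did not pass, 14.5% called beside 7.31% of all genes, with a median difference of 0.00131. Without single arrays the count was 5 without WT replicate 1, 6 without KO replicate 2 and 3 without each of the other 4. Castor2, Seh1l and Sesn2 passed in all 6 of those fits.

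Closest to REDD1 stand the TSC complex, the GTPase RHEB that it switches off, and the stress sensors. Of 12 such genes 1 rose, 1 fell and 10 did not pass, 16.7% called beside 7.31% of all genes. Sesn2 encodes a leucine-binding stress protein that holds mTORC1 in check. Its levels were 8.98, 8.98 and 8.97 in WT and 9.34, 9.26 and 9.36 in KO. The KO arrays lay well above WT, a rise of 0.34 (SE 0.04, adjusted p = 0.00536, limma). Rheb, the direct activator of mTORC1, had levels of 11.16, 11.07 and 11.17 in WT and 10.84, 10.98 and 10.82 in KO. All KO arrays lay below all WT arrays, as in 13.5% of all genes, and Rheb fell by 0.25 (SE 0.05, adjusted p = 0.0362, limma). Of the fits on 5 arrays it passed in the one that omits KO replicate 2 and in no other (adjusted p otherwise 0.0578 to 0.155), and missed after quantile normalization again (adjusted p = 0.0511). The TSC subunit genes Tsc1, Tsc2 and Tbc1d7 differed by 0.06 (adjusted p = 0.373), -0.07 (adjusted p = 0.333) and -0.00083 (adjusted p = 0.998). Ddit4l, the paralog of Ddit4, differed by 0.13 (adjusted p = 0.182) at a mean level below background, and the other sestrins Sesn1 and Sesn3 by 0.06 (adjusted p = 0.350) and -0.09 (adjusted p = 0.318, limma).

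Amino acids reach mTORC1 through sensors, the GATOR complexes and the RAG GTPases on the lysosome. Of 25 measured genes of this branch, 2 rose, 2 fell and 21 did not pass, 16% called beside 7.31% of all genes. Castor2, a relative of the arginine sensor CASTOR1 that binds GATOR2, had levels of 9.09, 9.06 and 9.07 in WT and 8.49, 8.53 and 8.60 in KO. It fell by 0.53 (SE 0.04, adjusted p = 0.00215, limma), the largest difference of the 62 pathway genes and of the 9 members, and the groups lay far apart. Seh1l, a subunit of GATOR2 and of the nuclear pore, had levels of 9.36, 9.24 and 9.34 in WT and 9.67, 9.69 and 9.68 in KO. Its 3 KO arrays were nearly equal and above WT, a rise of 0.37 (SE 0.04, adjusted p = 0.00629, limma). Fnip2, a partner of folliculin, rose by 0.25 (adjusted p = 0.0178), and of the fits on 5 arrays it passed in those that omit WT replicate 1 or KO replicate 2 (adjusted p otherwise up to 0.0956). Slc38a9, the lysosomal arginine transporter and sensor, fell by 0.23 (adjusted p = 0.0372), and missed the threshold without any single array (adjusted p = 0.0544 to 0.127). With the mean of its probe sets its difference was -0.15 (adjusted p = 0.0858).

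**Figure D4:**
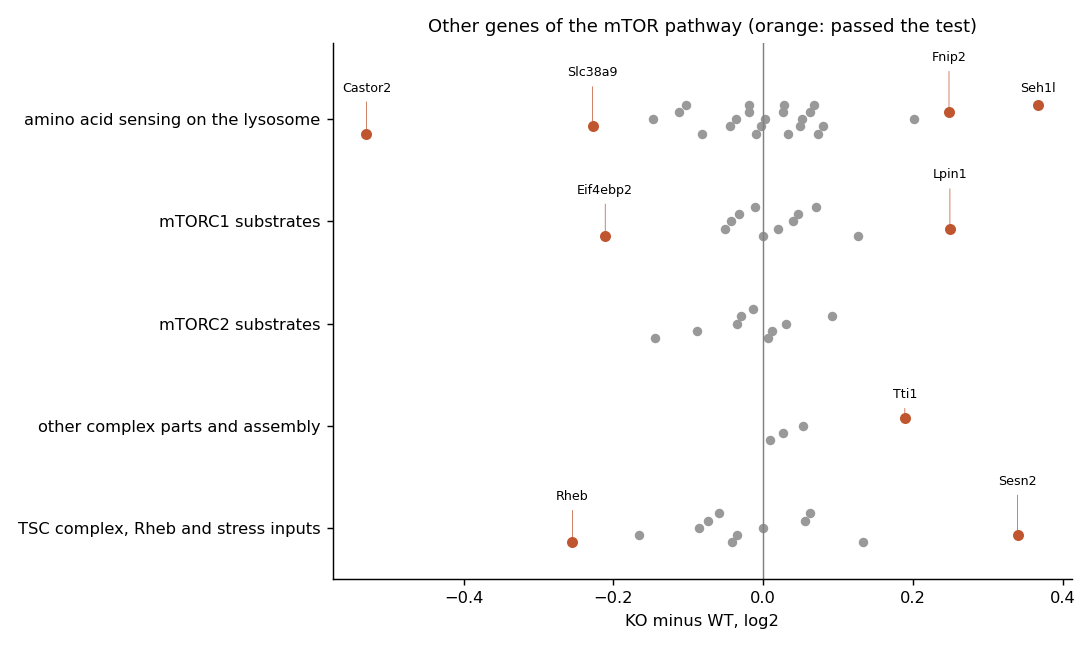
Differences KO minus WT (log2) of the 62 other measured pathway genes by their place in the pathway, each point 1 gene, orange and named where it passed the limma test. Called genes lie on both sides of 0 in 3 of the 5 lists, and no mTORC2 substrate gene was called.

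Downstream, 1 of 12 mTORC1 substrate genes rose, 1 fell and 10 did not pass, 16.7% called beside 7.31% of all genes. Lpin1, a phosphatidate phosphatase whose nuclear entry mTORC1 blocks, had levels of 9.51, 9.50 and 9.50 in WT and 9.80, 9.66 and 9.80 in KO. It rose by 0.25 (SE 0.05, adjusted p = 0.0267, limma), and of the fits on 5 arrays passed in the one that omits KO replicate 2 (adjusted p otherwise up to 0.121). Eif4ebp2, a translation repressor that mTORC1 inactivates, had levels of 10.60, 10.69 and 10.64 in WT and 10.45, 10.43 and 10.42 in KO. It fell by 0.21 (SE 0.04, adjusted p = 0.0201, limma), and among those fits passed only without WT replicate 1 (adjusted p otherwise 0.0513 to 0.0991). It also missed after quantile normalization again (adjusted p = 0.0514) and after cyclic loess (adjusted p = 0.0520).

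Of 9 measured mTORC2 substrate genes none passed the limma test. An unadjusted p under 0.05 was found for 2 of them, Akt2 and Sgk1, and for 20.7% of all genes. With a variance trend and robust variances 2 substrate genes were called lower, with array weights 1 higher and 1 lower. With the background filter 1 was called lower. Of all 19938 genes the variance trend called 2275 and array weights 3418, and the filter called 2184 of 13121. Akt2, the main AKT form of insulin-responsive cells, had levels of 11.11, 11.06 and 11.06 in WT and 10.98, 10.87 and 10.95 in KO. All KO arrays lay below all WT arrays, as in 13.5% of all genes. The difference was -0.14 (adjusted p = 0.0910, limma), so Akt2 did not pass. Sgk1, a kinase gene that glucocorticoids induce, differed by -0.09 (adjusted p = 0.167) and Akt1 by -0.03 (adjusted p = 0.692). Of 4 genes of other complex parts and assembly, Tti1, a scaffold for the folding of mTOR and related kinases, rose by 0.19 (SE 0.04, adjusted p = 0.0479, limma). It missed the threshold without any single array (adjusted p = 0.0748 to 0.147) and with array weights (adjusted p = 0.0677). Akt1s1, which encodes the mTORC1 inhibitor PRAS40, differed by 0.05 (adjusted p = 0.503).

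The genes whose levels followed those of Rictor most closely over the 6 arrays were Rel, Taf1d, Hacd3, Sepsecs and Srsf4, with Pearson correlations of 0.986 to 0.972 among 13120 genes above background. None of these 5 passed the test between genotypes, with differences of -0.03 to -0.01. Those most like Ddit4 were Slc25a51, Ppm1d, Plekhm1, Egr1 and Cpt2, with correlations of 0.9999 to 0.9995. All 5 passed, with rises of 0.17 to 0.97, and share with Ddit4 the separation of the genotypes. The correlations describe the same 6 arrays for every gene and carry no test.

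**Figure D5:**
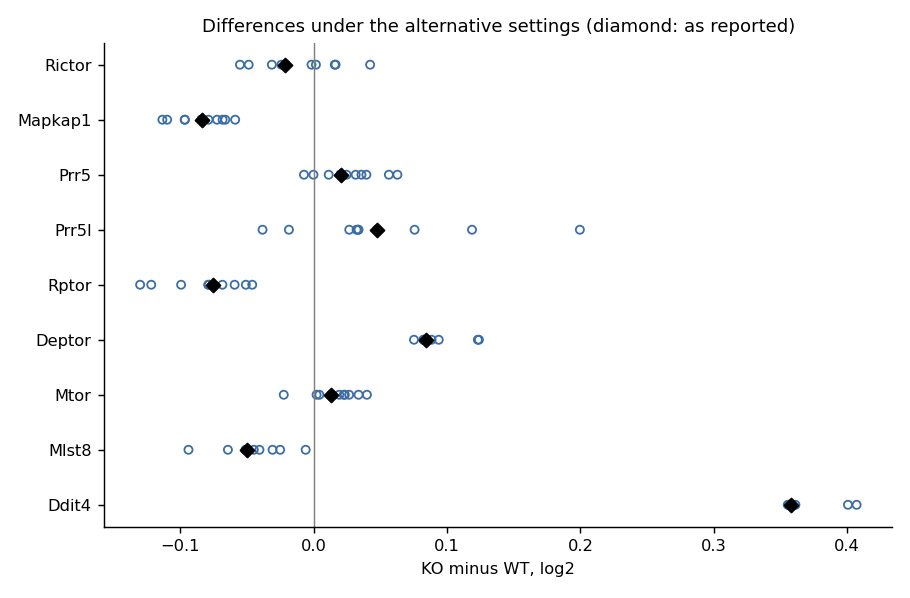
Difference KO minus WT (log2) of each gene as reported (diamond) and under each of the 13 alternative settings (circles; 12 for Prr5l, which the background filter removes). The circles of Ddit4 lie between 0.36 and 0.41, and those of Rictor lie on both sides of 0, from -0.06 to 0.04.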

How the data were processed

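For each of the 6 samples, 6 µg of total RNA was labelled and read on 1 Affymetrix gene array, per the labels' protocols. The deposited values are log2 levels that the authors made by RMA, with Partek and Affymetrix Expression Console, per the submitters' processing notes, which give no versions. Array medians were 7.19 to 7.23, and common scaling makes every change relative to the other genes. Of 35556 probe sets, 21789 had 1 symbol in the platform annotation, and symbols were updated by gene identifier for 21698 of them. Each gene was its probe set with the highest mean, which gave 19938 genes, and no filter was applied. KO and WT were compared with limma 3.58.1 in R 4.3.3 (lmFit, eBayes, no covariates, two-sided), checked on simulated data. Arrays give no read depth, and their number limits the precision. Groups and numbers came from the sample titles.

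The members and lists were chosen with earlier results of these data known. All members were named, and of each other list mainly called genes, at most 4 in each direction by smallest p. The likeness rule took the 5 highest Pearson correlations. Listed genes without a 1-symbol probe set were not analysed here. Alternatives were quantile normalization again, cyclic loess, a background filter, array weights, a variance trend with robust variances, the mean of probe sets, the replicate number as a block and each array left out.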

Additional observations from a re-analysis of the deposited data

How the results depend on the processing

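Among the 9 genes, Ddit4 kept its direction and its call in 12 of 13 alternatives, and Mapkap1, Rptor and Mlst8 kept their direction, uncalled, in all 13. The count of called members was 2 with a variance trend and robust variances, which added Deptor. The pathway count was 16 with array weights, and 3 to 6 without single arrays, against 9. The count of all called genes was 3418 with array weights, 2275 with a variance trend and robust variances, and 189 to 932 without single arrays, against 1457. Array weights gave WT replicate 3 a weight of 7.41 and the other arrays 0.524 to 1.19. The replicate numbers did not pair the samples: deviations of same-numbered arrays from their group means correlated at -0.40, -0.35 and -0.01, and 0 of 6 arrays correlated best with their own number. With the replicate block 52 genes were called in all, 1 of the 62 pathway genes and 0 members, where Ddit4 had a difference of 0.36 with an adjusted p of 0.0510 (limma) and 1 member had an unadjusted p under 0.05. The Rictor difference turned to 0.00177 after cyclic loess and 0.0424 with array weights, and ran from -0.0552 to 0.0165 without single arrays. Over the same fits that of Prr5 ran from -0.00719 to 0.0564, that of Prr5l from -0.0383 to 0.20 and that of Mtor from -0.0223 to 0.0400. The fits without 1 array have fewer samples and fewer degrees of freedom. The fit with the block uses all 6 arrays and has fewer degrees of freedom. The cause of any of these changes was not tested. Beside Ddit4, array weights and the variance trend with robust variances each called 12 glucocorticoid-induced genes against 6, array weights 13 hypoxia-induced genes against 8 and 7 ATF4 genes against 4, and the block 1, 2 and 0 of these lists. Small differences of dim genes such as Prr5l are limited by their signal over background.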
